A study of Mus musculus with 2 samples.

Results

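The genes described here are 10 genes known from the meninges, and above all from the arachnoid: Ptgds, Crabp2, Aldh1a2, Slc22a6, Fmod, Slc6a13, Igf2, Dcn, Lum and Slc13a4. They are 10 of the 55536 annotated genes in the deposited tables. They were selected by name, with their levels in the libraries described here in view, because several of them differ between these libraries. The size and the direction of those differences are therefore a description, no test was made on them, and they support nothing further. All 10 had a mean expected read count of at least 50, and their 33 annotated transcripts are included.

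The RNA came from hippocampus taken from adult mice at an age of 6 months, and there was 1 group of 2 libraries with no treatment and no second genotype. Both were made from 20 ng of RNA, selected for poly(A) tails, by Nextera tagmentation, in which a transposase cuts the cDNA and adds the sequencing adapters. The labels call the libraries biological replicates 1 and 2, name 2 tissue samples and give them 1 donor identifier, so whether they came from separate animals is not known, and the spread between them may be partly technical. The labels name the strain as C57BL/6 in one field and as B6NCrl in another, and describe the mice as male in one field while giving the sex as not collected in another.

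The first quantification program assigned 38921662 expected reads to genes in replicate 1 and 39499350 in replicate 2, and the second 55151500 and 55608190. Genes with at least 10 expected reads numbered 17349 and 17244, and mitochondrial genes took 6.42% and 7.01% of the reads. The Y-linked genes Ddx3y, Eif2s3y, Uty and Kdm5d together held 1 read in replicate 1 and 0 in replicate 2, against 9916 and 9436 reads of their X-linked partners, so both libraries went against the description as male. The libraries also stood apart in genes of the choroid plexus, the epithelium that secretes cerebrospinal fluid. Ttr, the transthyretin gene that marks this epithelium, had 471673 expected reads in replicate 1 and 3782 in replicate 2.

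The meninges wrap the brain as dura, arachnoid and pia. The arachnoid holds a layer of barrier cells joined by tight junctions, with transporters and enzymes, and fibroblasts that lay down collagen and proteoglycans. Meningeal cells are a known source of retinoic acid, of prostaglandin D synthase and of insulin-like growth factor 2 in and around the brain, and the choroid plexus shares part of this set of genes.

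The 10 genes fell into 3 sets between the libraries. Ptgds, Crabp2, Aldh1a2, Slc22a6, Fmod and Slc6a13 were at least 2-fold higher in replicate 2, in both programs. Igf2 and Slc13a4 were at least 2-fold higher in replicate 1, in both programs. Dcn and Lum were within 2-fold. Over all genes with a mean count of at least 50, 0.433% were at least 2-fold higher in replicate 2 and 1.97% in replicate 1 by the first program, and 0.567% and 2.14% by the second. Nothing is read from the members' counts beside these shares, because the genes were chosen on this difference. In bulk tissue, more cells of a type and more RNA per cell cannot be told apart.

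Promoter sequence is shown for 4 genes that went in opposite directions between the libraries: Aldh1a2 and Slc22a6, which were higher in replicate 2, and Slc13a4 and Igf2, which were higher in replicate 1. RefSeq gives start sites on GRCm38.p6, the patch release of the mm10 assembly, for 7 of the 10 genes in 12 windows, and not for Crabp2, Dcn and Lum. Each sequence below is the stretch of up to 250 bases before such a start, 5′ to 3′ on the gene's strand, with bases inside annotated exons removed. For Igf2 it is the window directly before the annotated start of transcript Igf2-201. Capitals mark CCAAT and GGGCGG, on either strand.
Aldh1a2, chr9:71215539-71215788, + strand: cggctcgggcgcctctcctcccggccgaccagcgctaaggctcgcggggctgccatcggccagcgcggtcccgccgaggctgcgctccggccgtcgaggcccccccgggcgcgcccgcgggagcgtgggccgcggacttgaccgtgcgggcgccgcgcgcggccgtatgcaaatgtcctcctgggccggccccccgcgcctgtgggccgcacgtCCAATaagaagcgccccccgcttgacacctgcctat
Slc22a6, chr19:8617746-8617995, + strand: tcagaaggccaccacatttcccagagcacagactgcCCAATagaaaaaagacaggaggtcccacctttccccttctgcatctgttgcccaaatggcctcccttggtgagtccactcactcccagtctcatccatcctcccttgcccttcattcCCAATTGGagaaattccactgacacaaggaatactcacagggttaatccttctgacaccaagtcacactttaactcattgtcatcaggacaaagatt
Slc13a4, chr6:35308132-35308376, - strand: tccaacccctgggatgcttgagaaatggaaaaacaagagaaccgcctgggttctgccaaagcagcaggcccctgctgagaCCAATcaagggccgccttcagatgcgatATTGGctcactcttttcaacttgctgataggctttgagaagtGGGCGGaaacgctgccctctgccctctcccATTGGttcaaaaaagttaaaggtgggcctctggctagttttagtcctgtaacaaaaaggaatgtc
Igf2, chr7:142657497-142657746, - strand: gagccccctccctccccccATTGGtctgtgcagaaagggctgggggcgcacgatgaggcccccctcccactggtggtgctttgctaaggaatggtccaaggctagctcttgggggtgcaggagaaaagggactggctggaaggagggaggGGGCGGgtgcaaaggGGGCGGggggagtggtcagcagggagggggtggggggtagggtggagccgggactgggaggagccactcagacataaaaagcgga
A CCAAT match stood in each of these 4 windows, once in Aldh1a2 and Igf2 and 3 times in Slc22a6 and Slc13a4. Of the matches in Slc22a6, a pair overlaps on opposite strands. Among the 12 windows, the only further CCAAT match was before an inner start of Slc6a13. The other windows of Igf2 held none, so a match in all 4 windows shown depends on which Igf2 window is shown. The GC box GGGCGG was found once in Slc13a4 and 2 times in Igf2, and not in Aldh1a2 or Slc22a6. Over all 12 windows it did not part the genes by direction. The window before the farthest upstream start of Slc6a13, which was higher in replicate 2, held it 2 times, with 61 of its bases in annotated exons. The window before the farthest upstream start of Igf2 held it 0 times. These letters are common: 33.8% of 32851 windows of 250 bases before RefSeq starts hold CCAAT on either strand and 32.7% hold GGGCGG. The nuclear receptor half-site AGGTCA, found in 14% of windows, matched once in the 12 windows of these genes before the farthest upstream start of Igf2 and once before an inner start of Slc6a13. Forkhead letters GTAAACA and TATAAA, found in 3.17% and 12.4% of windows, matched in none of the 12, and the windows of Ptgds and Fmod held none of the motifs searched. A match is only a match of letters and shows no bound factor, and a missing match says only that the letters are not in the window.

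Ptgds (ENSMUSG00000015090.13, chr2:25466709-25470046, minus strand, mm10) encodes lipocalin-type prostaglandin D synthase, which makes prostaglandin D2 and is secreted into cerebrospinal fluid as a carrier of small lipophilic molecules. In TPM, a level scaled for transcript length and depth, it stood at 1907 in replicate 1 and 4555 in replicate 2 by the first program, a mean of 3231 ± 1873 (SD, n = 2), and at 1514 and 3451 by the second, a mean of 2483 ± 1369 (SD, n = 2). It was the 59th most abundant gene by TPM in replicate 1 and the 17th in replicate 2. Its expected reads were 37507 and 91570, and its log2 ratio of replicate 2 over replicate 1 after scaling was 1.28, or 2.43-fold, in either program. Of 14078 genes with a mean count of at least 50, 26 had a higher ratio. The deposited tables give an interval of TPM for each gene, at a level not given in the sources used here. For Ptgds it ran from 1815 to 1858 and from 4364 to 4428, around posterior means of 1837 and 4396 that lie below the TPM. These intervals cover the assignment of reads within 1 library and not the spread between tissue samples.

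Ptgds made up most of the RNA of the 10 genes. Their levels summed to 2024 TPM (replicate 1) and 4676 TPM (replicate 2), of which Ptgds gave 94.2% and 97.4%. Without Ptgds the sums were 116.8 and 120.2 TPM by the first program and 96.7 and 96.6 TPM by the second. Dcn carried most of these sums, with 72.1 and 75.8 TPM by the first program, and the other 8 genes differed in both directions.

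**Figure D1:**
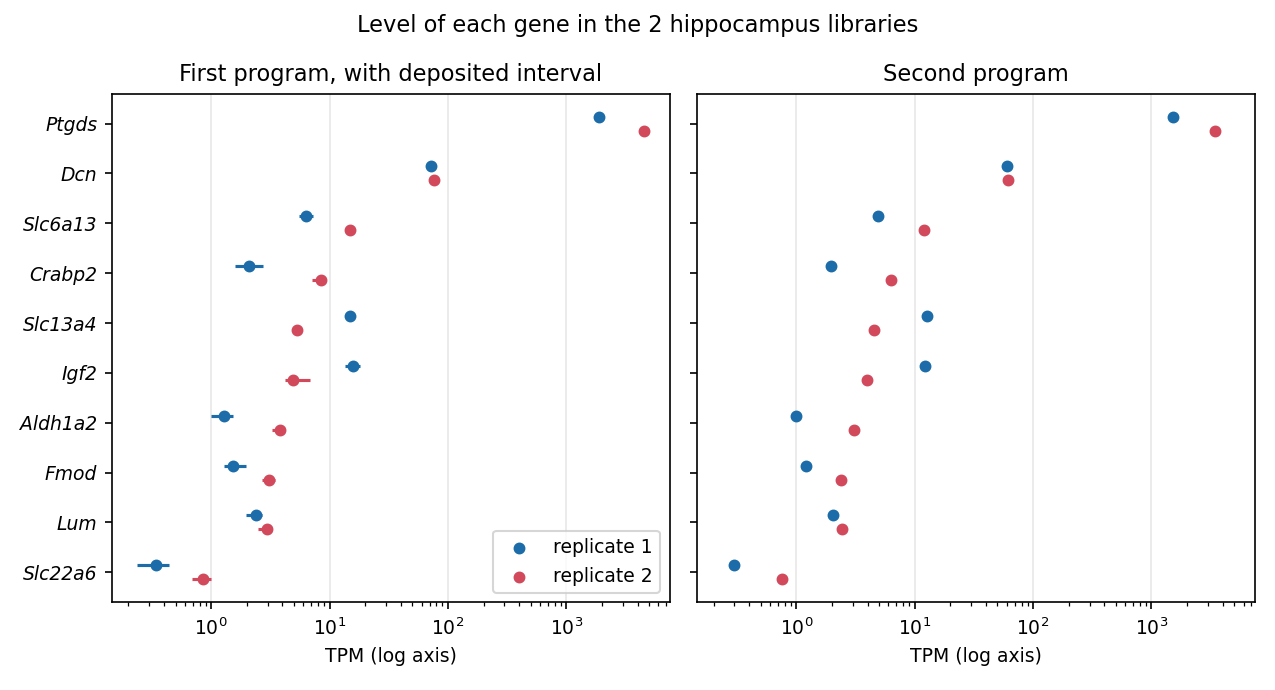
Level of each of the 10 genes in TPM on a log axis, in replicate 1 (blue) and replicate 2 (red), by the first program (left, horizontal lines are the deposited intervals, which belong to posterior means) and the second program (right, no interval deposited). Ptgds stands at or above 1514 TPM in both libraries and programs and Slc22a6 below 1 TPM, and Igf2 and Slc13a4 are the only genes with replicate 1 to the right.

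Crabp2 and Aldh1a2 belong to the retinoic acid pathway. Aldh1a2 (ENSMUSG00000013584.5, chr9:71215789-71296243, plus strand) encodes retinaldehyde dehydrogenase 2, which makes retinoic acid, and Crabp2 (ENSMUSG00000004885.5, chr3:87948666-87953376, plus strand) a cellular binding protein that delivers retinoic acid to its nuclear receptors. Crabp2 had 50 expected reads in replicate 1 and 206 in replicate 2. Its level was 2.10 and 8.43 TPM (5.27 ± 4.48, SD, n = 2). Its log2 ratio was 2.02 by the first program and 1.78 by the second, the highest of the 10 genes in both. Only 5 of the 14078 genes had a higher ratio in the first program. Aldh1a2 had 83 and 254 reads, or 1.29 and 3.85 TPM (2.57 ± 1.81, SD, n = 2), and a log2 ratio of 1.60 by the first program and 1.71 by the second. Both genes rank low in this tissue: Crabp2 was 12500th by TPM in replicate 1 and 7932nd in replicate 2, and Aldh1a2 13742nd and 10546th.

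The 3 solute carriers went in different directions. Slc22a6 (ENSMUSG00000024650.5, chr19:8618039-8628299, plus strand) encodes the organic anion transporter OAT1, best known from the kidney. It was the least abundant of the 10 genes in both libraries, with 40 and 103 reads, or 0.34 and 0.86 TPM (0.60 ± 0.368, SD, n = 2), and its log2 ratio was 1.35 by the first program and 1.43 by the second. Slc6a13 (ENSMUSG00000030108.14, chr6:121300227-121337733, plus strand) encodes the GABA transporter GAT2, found at the meninges rather than at synapses. It had 336 and 828 reads, or 6.36 and 14.9 TPM (10.7 ± 6.07, SD, n = 2), and its log2 ratio was 1.29 by the first program and 1.35 by the second.

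Slc13a4 (ENSMUSG00000029843.4, chr6:35267957-35308131, minus strand) encodes a sodium-coupled sulfate transporter known from the choroid plexus as well as the meninges. It was lower in replicate 2, with 1470 and 534 reads, or 14.8 and 5.32 TPM (10.1 ± 6.71, SD, n = 2). Its log2 ratio was -1.47 by the first program and -1.44 by the second. Of the 14078 genes, 125 had a lower ratio.

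Fmod, Dcn and Lum encode fibromodulin, decorin and lumican, small leucine-rich proteoglycans that bind collagen fibrils. Fmod (ENSMUSG00000041559.7, chr1:134037254-134048277, plus strand) had 138 and 285 reads, or 1.53 and 3.08 TPM (2.31 ± 1.10, SD, n = 2), with log2 ratios of 1.04 and 1.07 by the first and the second program. It stood just past 2-fold, and on the TPM of the first program, with a pseudocount of 0.1, its log2 ratio was 0.96. Dcn (ENSMUSG00000019929.16, chr10:97479609-97518143, plus strand) had 3533 and 3808 reads, or 72.1 and 75.8 TPM (74.0 ± 2.63, SD, n = 2), with log2 ratios of 0.10 and 0.11. Lum (ENSMUSG00000036446.5, chr10:97565128-97572703, plus strand) lies downstream of Dcn on the same strand and had 168 and 212 reads, or 2.40 and 2.96 TPM (2.68 ± 0.396, SD, n = 2), with log2 ratios of 0.33 and 0.34. Of the 14078 genes, 4681 had a higher ratio than Dcn and 1279 a higher ratio than Lum.

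Igf2 (ENSMUSG00000048583.16, chr7:142650766-142666816, minus strand) encodes insulin-like growth factor 2, an imprinted growth factor made in the adult brain mainly by the meninges and the choroid plexus. It had 555.1 expected reads in replicate 1 and 179 in replicate 2. Its level was 15.9 and 4.94 TPM (10.4 ± 7.73, SD, n = 2). The second program gave 12.3 and 3.92 TPM. Its log2 ratio was -1.64 by the first program and -1.74 by the second, the lowest of the 10 genes in both, and 100 of the 14078 genes had a lower ratio in the first. Igf2 shares its locus with other annotated genes that could take part of its reads, but these held few: Gm49394 on the same strand 1.5 and 0 expected reads, Mir483 0 in both libraries, and the antisense record Igf2os 4.42 and 2. Whether the counting used strand is not given in the sources used here.

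The deposited intervals of the libraries did not overlap for 8 of the 10 genes and overlapped for Dcn and Lum. Over all genes with a mean count of at least 50, the intervals did not overlap for 28.1%, so a gap between intervals is common in this pair of libraries. Crabp2, for example, had intervals of 1.58 to 2.74 TPM and 7.16 to 9.39 TPM, and Igf2 of 13.5 to 18.0 TPM and 4.17 to 6.81 TPM.

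The order of the levels within a library, in TPM by the first program, differed below the top pair. Ptgds came first and Dcn second in both libraries, and Slc22a6 last, each clear of its neighbour's interval. In replicate 1 Igf2 and Slc13a4 came next with overlapping intervals, then Slc6a13, and then Lum, Crabp2, Fmod and Aldh1a2, whose neighbouring intervals overlapped in a chain. In replicate 2 Slc6a13 came next after Dcn and Crabp2 after it, followed by Slc13a4, Igf2, Aldh1a2, Fmod and Lum, again in a chain of overlapping intervals. Crabp2 thus stood below Igf2 in replicate 1 and above it in replicate 2.

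**Figure D2:**
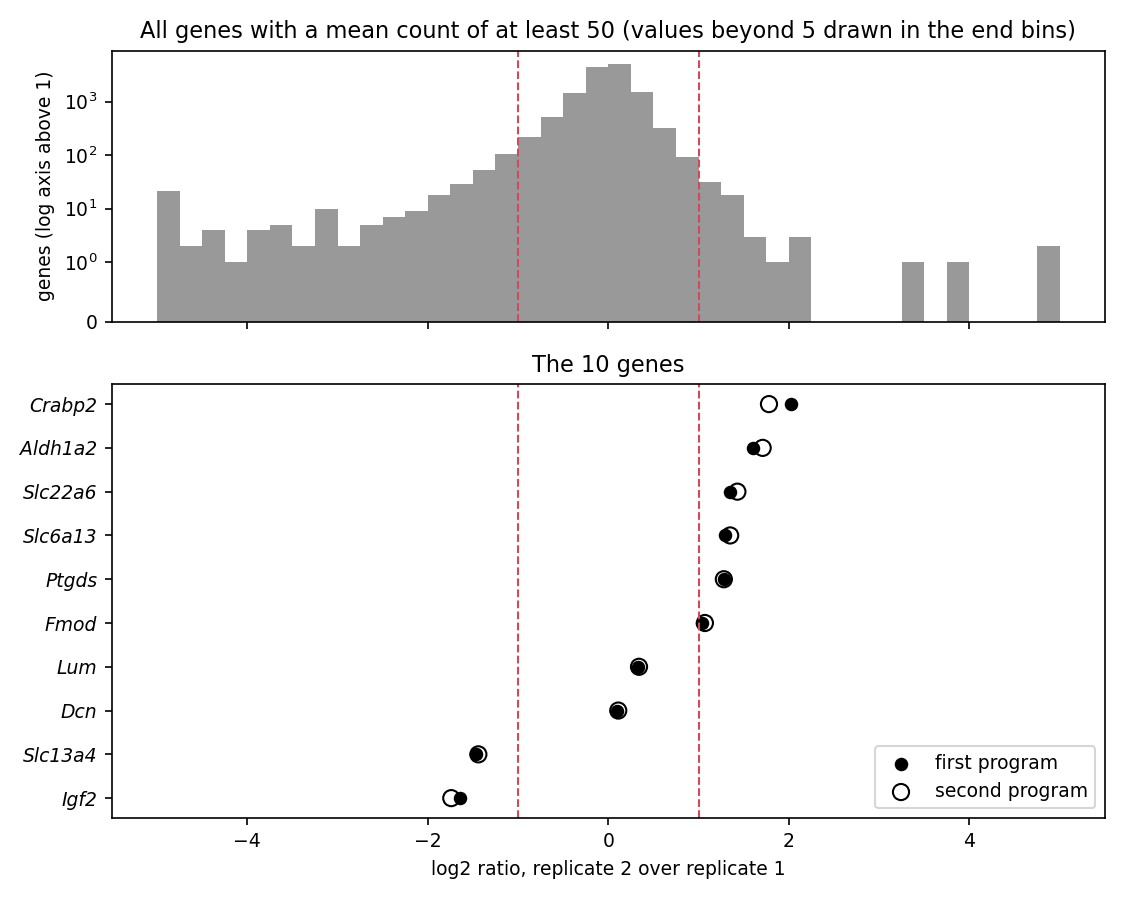
Top, number of genes (log axis above 1) by log2 ratio of replicate 2 over replicate 1 in the first program, for the 14078 genes with a mean count of at least 50; bottom, the same ratio for the 10 genes in the first (filled) and second (open) program, with dashed lines at 2-fold. Crabp2 is farthest to the right at 2.02 and 1.78, Igf2 farthest to the left at -1.64 and -1.74, and Dcn and Lum lie between the lines.

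Transcripts were next compared within each gene. Aldh1a2, Slc22a6 and Lum have 1 annotated transcript each, and Crabp2, Fmod, Dcn and Slc13a4 were read mostly as 1 transcript, with Dcn-201 at 95.3% of the gene's TPM averaged over the libraries and Slc13a4-201 at 97.3% in the first program. The second program gave Slc13a4-201 92.3% and 87.7% of the TPM and the retained-intron Slc13a4-202 7.69% and 12.3%. In Slc6a13, transcript Slc6a13-201 of 602 amino acids took 93.8% and 92.0% of the gene's expected reads and 78.0% and 78.5% of its TPM. The short retained-intron transcript Slc6a13-203 took 21.98% and 15.66% of the TPM. The retained-intron transcript Slc6a13-202 had 0 reads in replicate 1 and 29.9 in replicate 2, and 0 and 43.6 by the second program. Of the 33 transcripts, 5 were at 0 in both libraries and both programs.

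The programs disagreed on which Ptgds transcript led. The first program gave most reads to Ptgds-202, with 40.7% in replicate 1 and 44.8% in replicate 2, and the second gave it 20.2% and 21.8%. The second program placed Ptgds-203 first, with 37.0% and 38.2%, where the first gave it 23.5% and 25.4%. Ptgds-201, Ptgds-202 and Ptgds-203 differ in their untranslated exons and have the same coding blocks, for a protein of 189 amino acids. Together they took 85.7% and 84.2% of the gene's reads by the first program and 93.1% and 93.5% by the second. The coding share differed little between the libraries, and the higher level of Ptgds in replicate 2 was spread, unevenly in the first program, over all 5 transcripts. By that program Ptgds-202 had 15273 and 40998 expected reads, the noncoding Ptgds-204 had 5274 and 14182, and the retained-intron Ptgds-205 had 108.5 and 279.5. Ptgds-201 differed less, with 8038 and 12891 expected reads, or 21.4% and 14.1% of the gene's reads. The second program gave Ptgds-201 36.0% and 33.5%.

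Igf2 has several starts, and its transcripts were apportioned differently in the libraries. Igf2-201, a long transcript of 3708 bases from a downstream start, held 216 expected reads in replicate 1, or 38.9% of the gene, and 22.2 in replicate 2, or 12.4%. The second program gave Igf2-201 57.4% and 18.6%. Igf2-202 starts nearby and was read at 17.8% and 30.5% by the first program and at 0.174% and 21.4% by the second, so the programs split these transcripts unlike each other in replicate 1. Pooled, Igf2-201 and Igf2-202 held 56.7% and 42.9% by the first program and 57.6% and 40.0% by the second, lower in replicate 2 by both. The short Igf2-203 of 650 bases, from the farthest upstream start, held 30.9% and 29.0% of the reads. Per length it led, with 71.2% and 66.5% of the gene's TPM. Igf2-204 and Igf2-206, from an upstream start inside the locus, held 0 reads in replicate 1 and 24.3 in replicate 2, and 0 and 33.0 by the second program. Igf2-201, Igf2-202 and Igf2-203 have the same coding blocks, for 180 amino acids. With 179 reads for the whole gene in replicate 2, each of these shares rests on few reads.

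**Figure D3:**
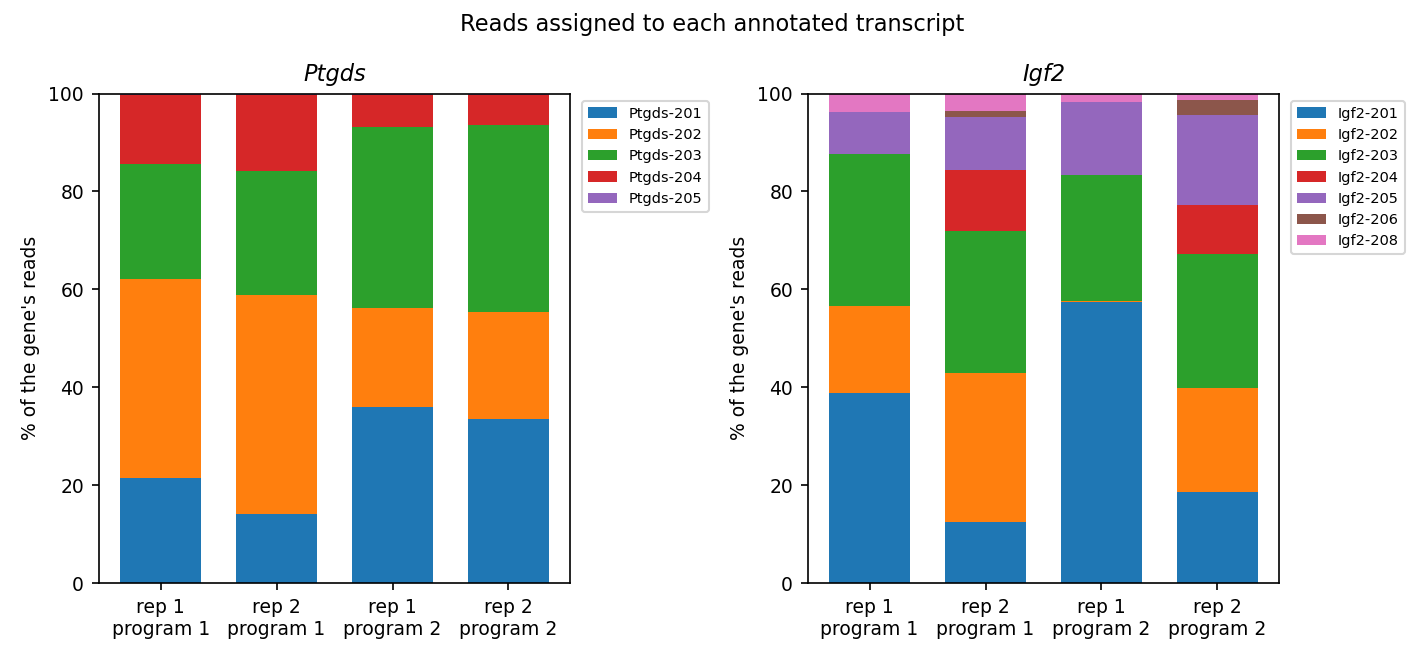
Percent of the reads of Ptgds (left) and Igf2 (right) assigned to each annotated transcript, in each library (rep) by each program; transcripts at 0 throughout are left out. For Ptgds the programs differ more than the libraries do, and for Igf2 the share of Igf2-201 is lower in replicate 2 in both programs.

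Other genes of the arachnoid and of meningeal fibroblasts were compared next. Of 28 such genes listed, 27 matched a record and 15 had a mean count of at least 50. None of the 15 differed by 2-fold in either direction, where 2.41% of all 14078 genes did, so a count of 0 among 15 is near that background. Their median log2 ratio was 0.14, with 9 above 0, beside 0.005 over all 14078 genes, of which 7157 were above 0. The median of the 10 selected genes was 1.16. Cldn11, a tight junction gene of arachnoid and oligodendrocytes, had 100.5 and 88.2 TPM and a log2 ratio of -0.16, and Mgp, a matrix protein gene, had 53.1 and 57.8 TPM and a log2 ratio of 0.17. The levels of the 27 genes summed to 263.8 TPM (replicate 1) and 250.5 TPM (replicate 2). The meningeal name describes where the 10 genes are known from.

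The 12 genes of that list under a mean count of 50 were also looked at, after their values had been seen. Of these, 11 had a ratio above 0, while 44.1% of the 6219 genes with mean counts from 3 to under 50 did. This was not particular to the meningeal list. Among genes under 50 in the lists described below, 7 of 8 proteoglycan, 6 of 7 solute carrier and 5 of 6 prostaglandin genes were above 0. So were 3 of 4 retinoid, 3 of 4 border macrophage and 4 of 7 insulin-like growth factor genes. None of the 2 red blood cell genes, 4 Y-linked genes and 1 choroid plexus gene under 50 was. Unlike the 44.1%, the tallies of these other lists had no lower limit of 3, so the shares are not strictly alike. Ddx3y, Eif2s3y and Uty had 0 reads in both libraries and could not be above 0, and H19 and Igfbp1 had 0 and 1. The transcription factor gene Foxc1 had 11 and 45 expected reads, Tbx18 9 and 26, and Tbx15 3 and 11. Wnt6, for a secreted Wnt ligand, had 2 and 26 reads, and Asgr1 12 and 58. Others were higher in replicate 2 by less than 2-fold in reads: Lama1 had 35 and 40 reads, Twist1 32 and 39, Col3a1 40 and 59, and Dpp4 18 and 31. In TPM of the first program Lama1 went the other way, with 0.32 and 0.16. Cdh1, which encodes the E-cadherin of arachnoid barrier cells, was the exception in reads with 33 and 16. These counts are small, and counting error alone is wide at such levels.

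The pathways of the members were also compared over lists of their other genes. In the retinoid pathway, 14 of 18 genes had a mean count of at least 50 and their median log2 ratio was -0.10. None was 2-fold higher in replicate 2, and 2 were at least 2-fold higher in replicate 1. Of these, Rdh5, a retinol dehydrogenase gene that overlaps Bloc1s1 on the same strand, had 1729 and 215.5 reads and a log2 ratio of -3.01. Whether Rdh5 and Bloc1s1 shared reads was not tested. The most abundant genes by mean TPM were Dhrs3, which turns retinaldehyde back to retinol, with 82.1 and 54.9 TPM, and Aldh1a1, another retinaldehyde dehydrogenase gene, with 47.5 and 41.2 TPM.

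In the prostaglandin pathway, 13 of 19 genes had a mean count of at least 50, with a median log2 ratio of 0.08. Ptger3, a receptor gene for prostaglandin E2, was the one gene past 2-fold, with 39 and 131 reads and a ratio of 1.73. Ptges3 and Ptges2, the most abundant of the list, had log2 ratios of -0.08 and 0.12. The 2 receptor genes for prostaglandin D2 fell under the count minimum and differed in opposite directions. Ptgdr had 11.2 and 23 reads and Ptgdr2 had 4.06 and 1, and both are named here after their values were seen.

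Of 14 other small leucine-rich proteoglycan genes, 6 had a mean count of at least 50 and none was past 2-fold, with a median log2 ratio of -0.53. Prelp had 44.8 and 29.8 TPM and Bgn, the biglycan gene, 19.3 and 18.9 TPM. Of 18 other solute carriers of brain barriers, 11 had a mean count of at least 50, with a median of 0.02. Slc4a5, a bicarbonate transporter gene of the choroid plexus, was past 2-fold with 875 and 10 reads. Slco1c1, a thyroid hormone transporter gene, had a log2 ratio of -0.75.

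Of 18 other genes of the insulin-like growth factor system, 11 had a mean count of at least 50, with a median log2 ratio of -0.02. Igfbp2, a binding protein gene of meninges and choroid plexus, was past 2-fold, with 4231 and 1550 reads and a ratio of -1.46. Igfbp4 had 82.8 and 68.2 TPM and a ratio of -0.14. Igfbp2 thus differed in the same direction as Igf2.

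Markers of other cell types were summed beside these results. Of 18 choroid plexus genes, 17 had a mean count of at least 50, and all 17 were at least 2-fold higher in replicate 1, with a median log2 ratio of -4.44. Their levels summed to 16262 TPM (replicate 1) and 246.5 TPM (replicate 2), and none was at 0 in either library. Besides Ttr, Enpp2, which encodes autotaxin, had 822.8 and 96.5 TPM. All 8 ependymal genes were higher in replicate 1, with a median of -0.56 and sums of 218.1 and 124.7 TPM. Mia, Dynlrb2 and Rsph1 were past 2-fold among them, and Mia and Rarres2 were the most abundant, Rarres2 at 56.0 and 44.5 TPM. Igf2 and Slc13a4 moved in the direction of these lists and Ptgds, Crabp2, Aldh1a2, Slc22a6, Fmod and Slc6a13 in the other, and the part of choroid plexus or ependyma in either result was not tested. The choroid plexus list also holds Slc4a5, and the meningeal list shares Bgn and Ogn with the proteoglycans and Slc22a8 and Slc47a1 with the solute carriers.

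**Figure D4:**
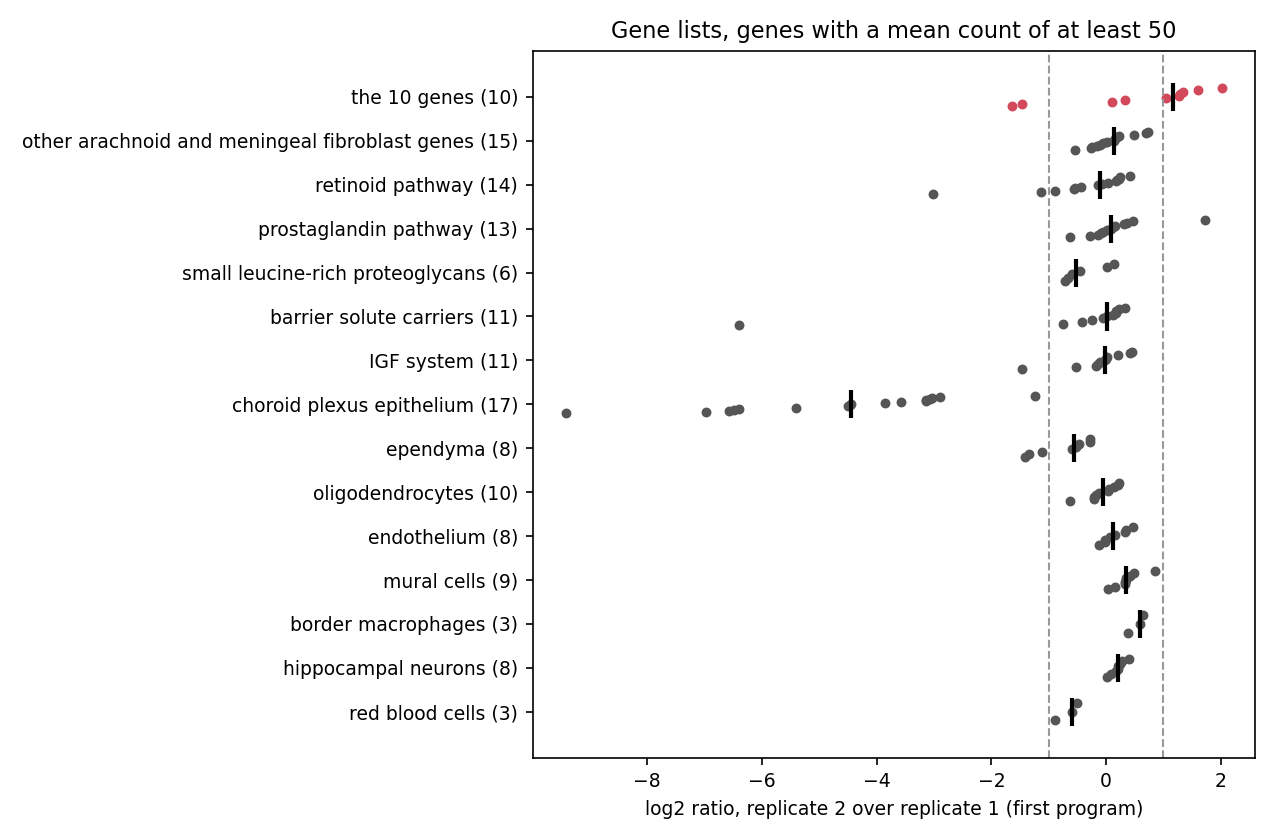
Log2 ratio of replicate 2 over replicate 1 for each gene with a mean count of at least 50, by list (number of such genes in brackets); black ticks are medians and dashed lines mark 2-fold. The 17 choroid plexus genes lie left of the lower line, with a median of -4.44, the other arachnoid and meningeal genes lie between the lines, and the 10 selected genes, in red, spread over both sides.

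Oligodendrocytes are another known source of Ptgds. Their 10 marker genes had a median log2 ratio of -0.04 and summed to 3814 and 4163 TPM, with Mbp at 2141 and 2435 TPM, and none was past 2-fold. Among vessel genes, all 9 mural genes had a ratio above 0, with a median of 0.35 and sums of 67.6 and 86.7 TPM, led by Vtn and Rgs5 at ratios of 0.48 and 0.16. The 8 endothelial genes had a median of 0.12 and sums of 244.1 and 299.6 TPM, led by Cldn5 and Itm2a at 0.47 and 0.33. Of 7 markers of border macrophages, the macrophages of meninges and perivascular spaces, 3 had a mean count of at least 50, with a median of 0.59 and list sums of 8.23 and 10.9 TPM, Pf4 and Mrc1 among them.

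The 8 markers of hippocampal neurons, which define the labelled tissue, all had a mean count of at least 50, with a median ratio of 0.20 and sums of 3304 and 3875 TPM, with Snap25 and Camk2a highest, at ratios of 0.21 and 0.24. Hemoglobin and heme genes of red blood cells, 3 of 5 with a mean count of at least 50, had a median of -0.60 and sums of 33.4 and 20.4 TPM. No vessel, macrophage, neuron or red blood cell gene that reached the count minimum was past 2-fold. The part of these cells in the differences of the 10 genes was not tested.

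The genes whose log2 ratios in both programs lay nearest to those of Ptgds were, in order, Cbln4, Lad1, C2, Gm42418, Tbx1, Sphk1, AC090479.2, Gm26917, Mab21l1 and Slc38a5, when the 10 genes themselves are left out. Likeness here is the distance between pairs of ratios, each over the same 2 libraries, and says only that the ratios are alike. Cbln4, which encodes a secreted synapse organiser, had 324 and 802 expected reads and ratios of 1.30 and 1.32 in the first and second program. The long noncoding records Gm42418 and Gm26917, both known to overlap ribosomal RNA sequence, were the most abundant of these genes, with 11563 and 29228 reads and with 61146 and 140489 reads. Among the selected genes, Slc6a13 was the 4th nearest of all genes to Ptgds and Slc22a6 the 13th, followed by Fmod at 25, Aldh1a2 at 58 and Crabp2 at 206, while Lum stood at place 1156, Dcn at 4570, Slc13a4 at 13943 and Igf2 at 13972.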

How the data were processed

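RNA with poly(A) tails from mouse hippocampus was sequenced in 2 libraries of 1 group. The deposited tables use mm10 and the M21 annotation, per the text deposited beside them, while program names and versions were not given in the sources used here. The first program gave, per the file headers, an expected count of reads, which need not be whole, together with a TPM, an FPKM, a posterior mean TPM and an interval. The second program gave an estimated count and a TPM per transcript, per the file headers, summed here per gene. Rows that name no gene, 26345 in each table, held 2.31e-05% and 1.64e-05% of the expected reads and were left out.

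Expected counts were rounded and scaled by TMM in edgeR 4.0.16 (R 4.3.3), with factors of 1.005 and 0.995. Log2 ratios of replicate 2 over replicate 1 used a prior count of 0.5 and genes with a mean count of at least 50, and 2-fold was the threshold. With 1 group and genes chosen on their difference, no test was made. The genes and the 15 gene lists were chosen with earlier results of these data known. Named are the 10 genes, in each list the 2 most abundant and those past 2-fold (for the choroid plexus as a count with examples), and the 10 nearest to Ptgds, and others were chosen after their values were seen. Some genes that this rule takes are not reported here. Alternatives were relative log expression, library totals, TPM, FPKM, the second program, a prior count of 5, count minimums of 10 and 200, a 1.5-fold threshold, each library alone and a correction for GC content in 20 bins, which was added after the data had been seen. Tables were handled with Python 3.11.15, numpy 2.4.6 and pandas 2.3.3, and figures were drawn with matplotlib 3.10.9. The calculation of ratios was also run on simulated counts with planted folds. Those counts held counting error only, so they say nothing about the spread between tissue samples. Reads carried no stated molecular identifiers and need not be separate molecules, so the floor of 3 reads, or 0.0771 and 0.0760 CPM, covers counting error only.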

Additional observations from a re-analysis of the deposited data

How the results depend on the processing

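Over 6 alternatives (other scalings, TPM, the second program, a prior count of 5 and removal of the GC trend) the ratios of the 10 genes kept their direction. The ratio of Ptgds ran from 1.21 to 1.29, of Crabp2 from 1.78 to 2.03 and of Igf2 from -1.74 to -1.61. Fmod left the genes past 2-fold on TPM, at 0.96, and with the GC trend removed, at 0.98, so that 7 of the 10 genes were past it instead of 8. The share of all measured genes past 2-fold, 2.41%, was 5.24% with a count minimum of 10 and 1.35% with a minimum of 200, so it was smaller as genes of low count were left out. Which Ptgds transcript leads depends on the program, and Igf2-203 leads by TPM in both libraries and programs but by reads only in replicate 2 of the second program. With 1 library left out the mean level of Ptgds was 1907 or 4555 TPM. No paired analysis was possible because there was 1 group. With 2 libraries no outlier could be tested, and counts of Crabp2, Slc22a6 and the genes under a mean of 50 limit their ratios.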
